A study of Mus musculus with 7 samples.

Results

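The genes described here encode the nuclear part of the mitochondrial respiratory chain and the ATP synthase. They were chosen by gene symbol, as all genes whose symbol begins with Nduf, Uqcr, Cox4i, Cox5, Cox6, Cox7, Cox8 or Atp5, together with Sdha, Sdhb, Sdhc and Sdhd, and that were read by a probe set assigned to 1 gene only. This gave 89 of the 19938 genes tested on the arrays. The symbols also take in factors that are not part of the finished complexes, and 80 of the 89 encode subunits. Complex I contributed 41 genes, complex II 4, complex III 8, complex IV 19 and complex V 17. RefSeq lists 96 protein-coding mouse genes that meet the symbol rule. Of these, 7 were not used here, among them Cox7c, Ndufb4 and Ndufb4b, which were found only on probe sets shared by several genes.

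The respiratory chain sits in the inner mitochondrial membrane. Complexes I and II take electrons from NADH and succinate, complex III passes them to cytochrome c, and complex IV hands them to oxygen, while complex V makes ATP from the proton gradient. Pluripotent stem cells are known for a strong reliance on glycolysis, and fibroblasts for a well developed mitochondrial network. Complex IV is unusual in that several subunits exist as isoforms encoded by separate genes and made in different tissues.

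RNA of 7 mouse cell cultures was measured, 1 array each. Mouse embryonic fibroblasts (MEFs), isolated at 13.5 dpc from 129/OG2 mice, were cultured in FBS (1 array) or in a medium labelled iCD1 (1 array). MEFs infected with Oct4 gave rise to the induced pluripotent stem (iPS) cells, which thus descend from fibroblasts like the controls. Their lines O4-1, O4-2 and O4-4 were cultured in KSR (3 arrays), and line O4-1 was also cultured in N2B27 with 2i, a pair of kinase inhibitors that hold cells in the naive state (1 array). OG2 embryonic stem (ES) cells were cultured in the same 2i medium (1 array). The OG2 background carries a fluorescent reporter driven by the Oct4 promoter. Groups follow the titles and growth conditions. Other label fields disagree with them: the description calls each sample iPS cells early after infection, the source field names fibroblasts for the ES cells, and for the iPS cells it names iCD1.

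Values are log2 expression per probe set, with array medians between 4.97 and 5.03. Only the KSR iPS cells were replicated (n = 3 lines, each 1 line in 1 culture), so every test rests on the spread between those 3 lines, and precision is limited by how few arrays there are. The labelled cell types were borne out by their markers. All 10 pluripotency markers rose in the pluripotent cells (median level 3.99 and 4.04 on the MEF arrays and 9.74 to 10.03 on the others), and all 9 fibroblast markers fell. Fibroblast markers were not equally low in all pluripotent cultures. Their median level was 9.24 and 9.88 on the MEF arrays, 6.16 to 6.92 in the KSR lines, with O4-4 highest, and 5.45 and 5.84 in 2i. The part of fibroblast RNA in the values below was not tested.

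In the pluripotent cells as a whole, respiratory chain transcripts stood close to their MEF level. The mean of the 5 pluripotent arrays was compared with the mean of both MEF arrays, and cell type and medium changed together in that comparison. With limma and Benjamini-Hochberg adjustment over all genes at 0.05, 12 of the 89 genes rose (13.5%) and 1 fell (1.12%), while 13.3% of all genes rose and 15.6% fell. The share that rose was thus near that of all genes, and falls were fewer. Among genes at or above the median level, as most of the 89 were, 22.9% rose and 22% fell, both more than among the 89. Quantile normalization of the arrays moved the split of the 89 genes to 12 risen and 3 fallen.

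The differences were small. Over the 89 genes the median difference was 0.12 on the log2 scale, beside 0.02 over all genes, and the median size of the difference was 0.19, beside 0.28 over all genes and 0.52 over the genes at or above the median level. Of the respiratory chain genes, 83 stood at or above that level. Only Cox7a1, Ndufaf6 and Ndufa4l2 differed 2-fold or more (3.37%, against 16.5% of all genes), and 10 differed 1.5-fold or more, all upward (11.2%, against 29.9%). For 82 of the 89 genes (92.1%) the 95% interval of the difference lay within a 2-fold change either way, as it did for 68.1% of all genes. In bulk RNA of this kind, a lower share of cells with a transcript and less of it per cell cannot be told apart.

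The direction was mostly upward. On average 63 of the 89 genes (70.8%) were higher in the pluripotent cells, against 52.2% of all genes. This count was 58 under quantile normalization (65.2%, against 48.7% of all genes). When each array was centred on its median it was 71 (79.8%, against 61.2% of all genes). All 5 pluripotent arrays lay above both MEF arrays for 34 genes (38.2%, background 21.9%) and below both for 5 (5.62%, background 22%). Those 5 were Ndufa8, Ndufa2, Ndufa4, Atp5h and Atp5j, of which Ndufa8 passed the test. Of the 9969 genes at or above the median level, 3257 lay above both MEF arrays on all pluripotent arrays and 2992 below. The upward share of the 89 genes was thus closer to that of genes at this level than to that of all genes.

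**Figure D1:**
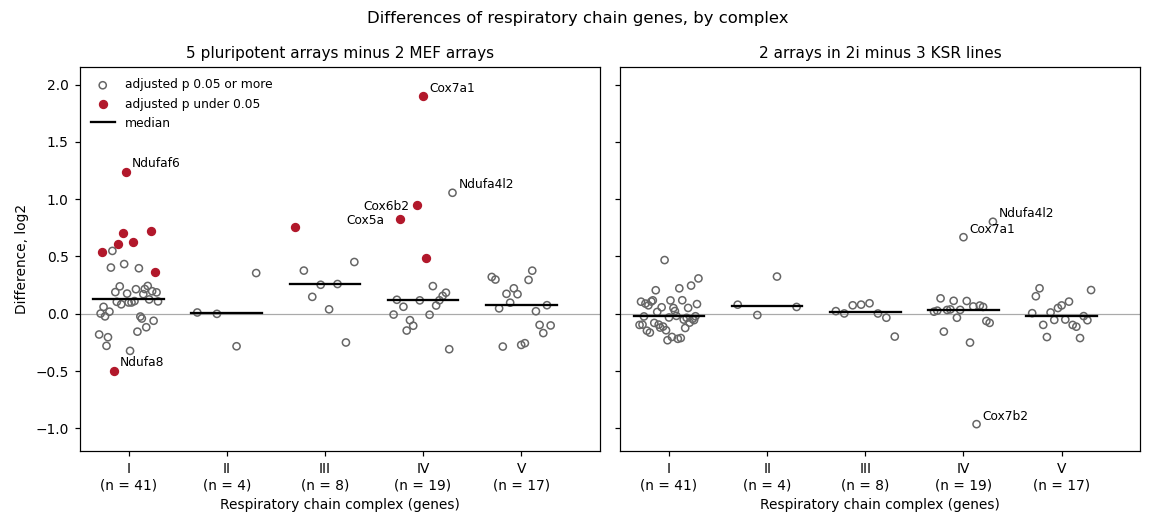
Log2 difference of each respiratory chain gene (points) by complex, with the median of each complex as a bar. The left panel shows 5 pluripotent arrays minus 2 MEF arrays and the right panel 2 arrays in 2i minus 3 KSR lines. Medians lie between 0.01 and 0.26 on the left, filled points (adjusted p under 0.05) occur in complexes I, III and IV, and no point is filled on the right.

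Complex I is the entry point for electrons from NADH. Of its 41 genes 7 rose (17.1%, background 13.3%, or 22.9% at or above the median level). A fall was called for 1 (2.44%, background 15.6%), and the median difference was 0.13. Its genes fall into a catalytic core, accessory subunits that surround the core, and assembly factors that build the complex and then leave it. All 7 assembly factors read here (Ndufaf1 to Ndufaf7) were higher on average in the pluripotent cells, against 52.2% of all genes. This also held under quantile normalization and median centring. Of these factors 3 rose (42.9%), with a median of 0.43. The 28 accessory subunits had a median of 0.10, with 3 that rose (10.7%) and 1 that fell (3.57%). The 6 core subunits had a median of 0.19, with 1 that rose (16.7%).

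Among the assembly factors Ndufaf6 changed most. It read 4.64 and 4.15 in MEFs in FBS and iCD1, 5.75, 5.86 and 5.47 in KSR lines O4-1, O4-2 and O4-4, and 5.57 and 5.53 in iPS and ES cells in 2i. All pluripotent cultures were above both MEF cultures, and the difference was 1.24 ± 0.14 (SE), or 2.36-fold (limma adjusted p = 0.0128). Ndufaf1, which acts on an early membrane intermediate of complex I, read 6.88 and 7.16 in MEFs, 7.65, 7.62 and 7.72 in the KSR lines and 7.67 and 7.47 in 2i. Its groups did not overlap either, at 0.61 ± 0.08 (limma adjusted p = 0.0158).

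Ndufaf4, another assembly factor, differed more between the MEF cultures than between the cell types. It read 6.74 in FBS but 5.74 in iCD1, and 7.03, 6.91 and 7.04 in the KSR lines and 7.06 and 6.70 in 2i, so that the ES array lay just under the MEF array in FBS. The fit gave 0.71 ± 0.08 (limma adjusted p = 0.0134). Against MEFs in FBS alone the difference was only 0.20. The call was lost when the spread between both MEF arrays and that between both 2i arrays entered the residual (limma adjusted p = 0.0731). Ndufaf5 read 4.73 and 4.38 in MEFs, 4.52, 4.52 and 5.36 in the KSR lines and 5.18 and 5.36 in 2i. Here line O4-4 stood with the 2i cultures and the other KSR lines with the MEFs.

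Of the accessory subunits, Ndufs6 showed the largest rise. It read 8.77 and 8.81 in MEFs, 9.41, 9.43 and 9.40 in the KSR lines and 9.77 and 9.55 in 2i, a difference of 0.72 ± 0.07 or 1.65-fold (limma adjusted p = 0.0102, the lowest of the 89 genes). The KSR lines differed from each other by 0.04 at most, and the MEF arrays were well below them. Ndufs6 is a zinc-binding subunit of the peripheral arm.

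Ndufb3, a small membrane-arm subunit, read 5.99 and 6.21 in MEFs, 6.67, 6.63 and 6.82 in the KSR lines and 6.55 and 6.97 in 2i (0.63 ± 0.10, limma adjusted p = 0.0215). Ndufa11, also of the membrane arm, read 7.50 and 7.66 in MEFs, 8.21, 8.21 and 8.04 in the KSR lines and 8.09 and 8.03 in 2i (0.54 ± 0.09, limma adjusted p = 0.0294). A second Ndufa11 probe set gave 0.41, and with the mean of both the adjusted p was 0.0543, so the call depends on which is used. Neither gene's pluripotent arrays overlapped the MEF arrays.

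Ndufv1 was the core subunit that rose. It carries the flavin that accepts electrons from NADH. Its values were 8.13 and 8.31 in MEFs, 8.59, 8.62 and 8.57 in the KSR lines and 8.56 and 8.59 in 2i, a difference of 0.37 ± 0.07 (limma adjusted p = 0.0395, lost under quantile normalization at 0.09). The other 5 core subunits, Ndufs1, Ndufs3, Ndufs7, Ndufs8 and Ndufv2, differed by -0.12 to 0.22 and none passed.

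Ndufa8, an accessory subunit on the intermembrane side, was the gene that fell. It read 7.54 and 7.77 in MEFs, 7.20, 7.20 and 7.17 in the KSR lines and 7.19 and 7.03 in 2i, a difference of -0.50 ± 0.07 (limma adjusted p = 0.0203). The 5 pluripotent values lay close together and under both MEF values. Ndufb11 had the next lowest value in complex I at -0.32 (adjusted p = 0.0545) and read 9.16 in iCD1 but 8.64 in FBS, the latter no higher than in the 2i cultures.

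Complex II, which oxidises succinate and is also an enzyme of the citric acid cycle, had no gene past the test. The flavoprotein Sdha read 9.28 and 9.56 in MEFs, 9.28, 9.39 and 9.54 in the KSR lines and 9.50 and 9.45 in 2i, and the iron-sulphur subunit Sdhb 7.29 and 7.31, then 7.15, 7.37 and 7.41, then 7.31 and 7.29. For both catalytic subunits the groups overlapped, with differences of 0.01 ± 0.11 and 0.00 ± 0.11.

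The membrane anchors of complex II had differences of opposite sign. Sdhd read 8.64 and 8.53 in MEFs, 8.91, 8.83 and 9.01 in the KSR lines and 8.99 and 8.97 in 2i, all above the MEFs (0.36 ± 0.09, limma adjusted p = 0.0676). Sdhc read 8.92 and 9.31 in MEFs, 8.63, 8.82 and 8.66 in the KSR lines and 8.95 and 9.11 in 2i (-0.28 ± 0.10, adjusted p = 0.117). The KSR lines were thus below both MEF arrays for Sdhc, while the 2i cultures lay between them.

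Complex III had the highest median of the 5 complexes, 0.26. On average 7 of its 8 genes were higher in the pluripotent cells (6 under quantile normalization), against 52.2% of all genes. All pluripotent arrays lay above both MEF arrays for 6 of them, as for 21.9% of all genes and 3257 of the 9969 at or above the median level. Among these 6, Uqcr11 overlapped on a second probe set, with 6.73 and 6.63 in MEFs and 6.50 in O4-1 in KSR. Uqcr10, a small subunit next to the cytochrome c1 and iron-sulphur proteins, was the one that rose (12.5% of the complex, background 13.3%). It read 6.54 and 6.95 in MEFs, 7.51, 7.30 and 7.69 in the KSR lines and 7.49 and 7.55 in 2i (0.76 ± 0.14, limma adjusted p = 0.0320).

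The remaining complex III genes stayed short of the threshold. Uqcrq, Uqcr11, Uqcrfs1 (the iron-sulphur protein), Uqcrc1 and Uqcrb had differences of 0.45, 0.38, 0.26, 0.25 and 0.15, and Uqcrc2 of 0.04. Uqcrh, the acidic hinge protein that helps cytochrome c dock, had the one negative value, -0.25 ± 0.10 (limma adjusted p = 0.159). Cyc1, the cytochrome c1 of the same complex, lies outside the symbol rule and rose by 0.81 ± 0.09 (limma adjusted p = 0.0114).

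Complex IV has 19 genes here, which include 7 isoforms that textbooks assign to single tissues. With limma 4 rose (21.1%, background 13.3%, or 22.9% at or above the median level) and 0 fell (background 15.6%). The median was 0.12. Both genes of the pair Cox7a1 and Cox7a2 rose, as did Cox6b2 and Cox5a.

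Cox7a1, the isoform known from heart and skeletal muscle, showed the largest rise of the 89 genes. It read 5.08 and 4.83 in MEFs, 6.26, 6.27 and 7.23 in KSR lines O4-1, O4-2 and O4-4, and 7.29 and 7.21 in 2i. The lowest pluripotent value was more than 1 log2 unit above the highest MEF value, and O4-4 stood with the 2i cultures. The difference was 1.90 ± 0.35, or 3.72-fold (limma adjusted p = 0.0324). With the KSR lines alone it was 1.63 ± 0.38 and just missed the threshold (adjusted p = 0.0582). Markers of striated muscle did not rise with it: 0 of 13 rose and 6 fell. Their median level was 5.33 on both MEF arrays and 4.89 to 5.20 on the pluripotent arrays. The 6 that fell were the contractile genes Actc1, Tnnc1, Acta1, Myh3, Tnnt2 and Tnni1, of which Actc1 fell most. Myog and Myod1 were lower without passing. Only Myh6, Myh7, Myl2, Ckm and Ckmt2 were higher, by 0.03 to 0.11, and none of them passed.

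Cox7a2, the isoform found in most tissues, read 7.87 and 8.02 in MEFs, 8.31, 8.48 and 8.37 in the KSR lines and 8.49 and 8.51 in 2i (0.49 ± 0.09, limma adjusted p = 0.0329). Its groups did not overlap, and with the KSR lines alone the difference was 0.44 and the call was lost (adjusted p = 0.0523). Cox7a2l, a related protein that joins complexes III and IV into supercomplexes, differed by -0.01, and a second probe set of it gave 0.24.

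Cox6b2, the isoform known from testis, read 5.16 and 5.89 in MEFs in FBS and iCD1, 6.49, 6.73 and 6.24 in the KSR lines and 6.27 and 6.64 in 2i (0.95 ± 0.17 or 1.93-fold, limma adjusted p = 0.0299). All pluripotent arrays were above both MEF arrays, and its widely expressed partner Cox6b1 differed by -0.10 ± 0.24. Germ cell and testis genes moved in the same direction. Of 10 such markers 5 rose (Dazl, Tex14, Sycp3, Ddx4 and Ldhc), their median level was 3.35 and 3.28 in MEFs and 4.37 to 5.28 in the pluripotent cultures, and the other 5, Sycp1, Tnp1, Odf1, Prm1 and Pgk2, differed by 2.53, 0.46, 0.26, 0.10 and 0.00 without passing. Their part in the Cox6b2 result was not tested.

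Cox5a, a widely expressed subunit on the matrix side, read 7.88 and 7.54 in MEFs, 8.41, 8.35 and 8.69 in the KSR lines and 8.53 and 8.71 in 2i (0.83 ± 0.13 or 1.77-fold, limma adjusted p = 0.0246). Its neighbour in the complex, Cox5b, differed by 0.06 ± 0.08. A second Cox5b probe set with a lower mean gave 0.57, with 6.34 and 7.35 in MEFs and 7.02 to 8.05 in the pluripotent cultures.

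Ndufa4 and Ndufa4l2 went apart in value, though neither passed the test. Ndufa4, long counted with complex I and now with complex IV, read 9.54 and 9.78 in MEFs, 9.39, 9.30 and 9.46 in the KSR lines and 9.33 and 9.28 in 2i (-0.31 ± 0.09, limma adjusted p = 0.0818). Ndufa4l2, a relative known as a target of hypoxia signalling, read 4.78 and 4.57 in MEFs, 5.40, 6.07 and 4.76 in the KSR lines and 5.87 and 6.55 in 2i. Line O4-4 lay within the MEF range and the ES cells were highest. The KSR lines, which give the spread of the test, ranged over 1.31 log2 units. The Ndufa4l2 difference of 1.06 ± 0.41 did not pass (limma adjusted p = 0.156).

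The remaining isoform groups showed little. Cox4i1 and Cox4i2, the latter a lung isoform also tied to low oxygen, differed by -0.01 ± 0.12 and 0.12 ± 0.18. Cox6a1 and its muscle isoform Cox6a2 differed by -0.15 and -0.06, and Cox8a, Cox8b and Cox8c by 0.12, 0.16 and 0.18. Cox7b and Cox7b2 differed by 0.24 and 0.07. None of these passed the test, and the groups overlapped for Cox4i1, Cox4i2, Cox6a1, Cox6a2, Cox7b2 and Cox8a, while all pluripotent arrays lay above both MEF arrays for Cox7b, Cox8b and Cox8c.

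**Figure D2:**
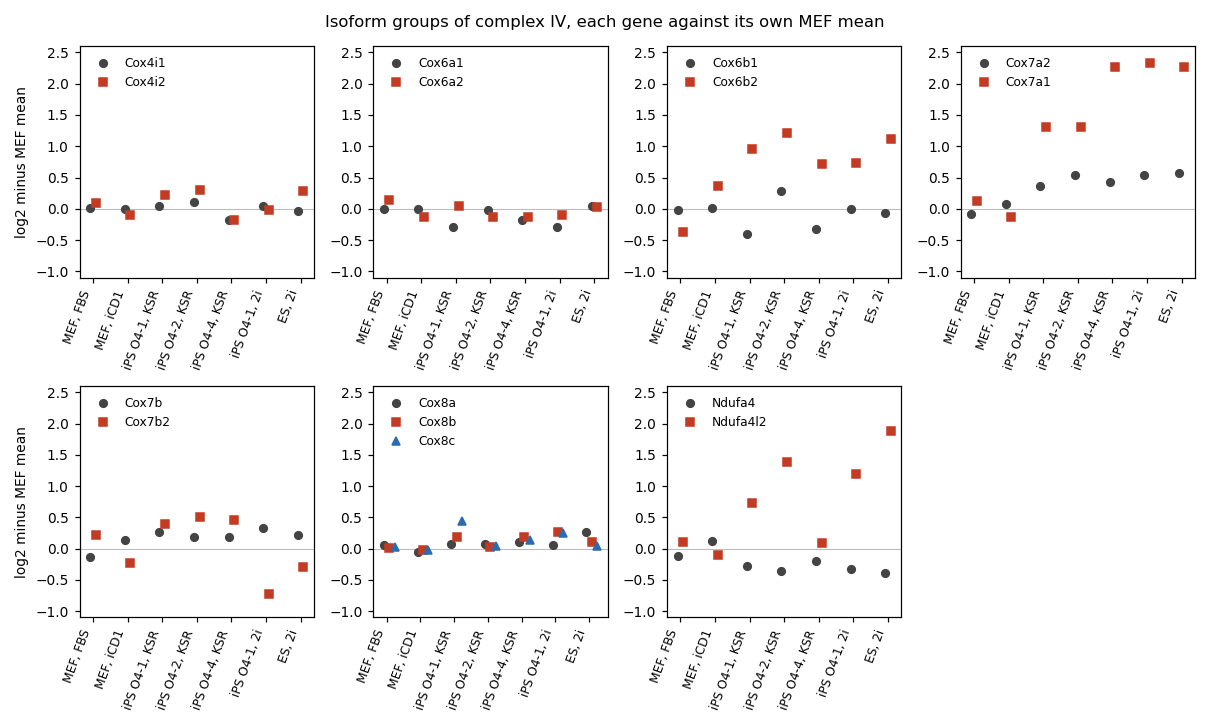
Log2 level of each gene minus its own mean over both MEF arrays (y axis) on each of the 7 arrays (x axis), 1 panel per isoform group of complex IV and 1 point per array. Cox7a1, Cox6b2 and Ndufa4l2 are the isoforms that leave the zero line furthest upward, and Cox7b2 separates the KSR lines from the 2i cultures.

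Complex V, the ATP synthase, had 0 of 17 genes past the test with limma (background 28.9%), and its median difference was 0.07. The 5 genes of the catalytic F1 head differed by -0.29 to 0.32, with the catalytic subunit genes Atp5a1 and Atp5b at 0.32 ± 0.07 and 0.30 ± 0.10 (limma adjusted p = 0.0508 and 0.117). Atp5a1 read 10.96 and 11.06 in MEFs, 11.33, 11.32 and 11.34 in the KSR lines and 11.39 and 11.28 in 2i, without overlap, and just missed the threshold.

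The 3 genes that encode the same c-ring protein with different import sequences, Atp5g1, Atp5g2 and Atp5g3, differed by 0.10, 0.22 and 0.17. Atp5g1 read 8.87 and 8.92 in MEFs and 8.82 to 9.09 in the pluripotent cultures, Atp5g2 10.18 and 10.39 against 10.37 to 10.72, and Atp5g3 10.58 and 10.73 against 10.68 to 11.02. For each of them the groups overlapped on these probe sets, which were those with the highest mean. Other probe sets of Atp5g1 and Atp5g2 showed no overlap. That of Atp5g1 gave 0.57, with 7.43 and 7.36 in MEFs and 7.84 to 8.07 in the pluripotent cultures. Those of Atp5g2 gave 0.23 and 0.48. The stalk and coupling genes Atp5h and Atp5j lay below both MEF arrays on every pluripotent array, at -0.27 and -0.26, and neither passed (limma adjusted p = 0.0767 and 0.0977).

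**Figure D3:**
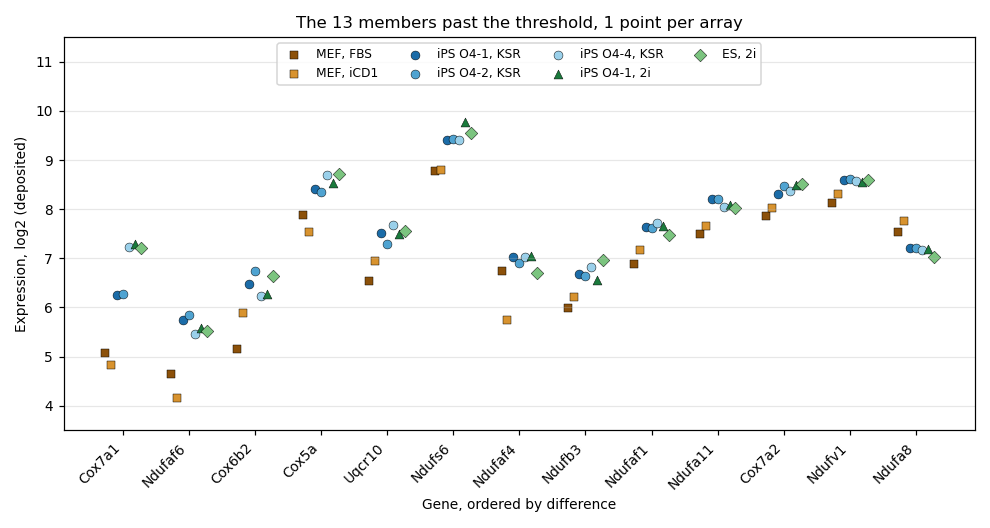
Deposited log2 expression (y axis) of the 13 genes past the threshold (x axis, ordered by difference), 1 point per array. MEF arrays are squares, KSR lines circles and 2i cultures triangles and diamonds. Pluripotent arrays lie above both MEF arrays for 11 of the 12 genes that rose, Ndufaf4 being the exception, and below both for Ndufa8.

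These calls rest on few arrays. With limma, 9 members were called without line O4-4 (background 20.9%), 2 without O4-2 (background 14.6%) and 0 without O4-1, when 0 of all genes were called either and 19 of the 89 had an unadjusted p under 0.05, against 30 with all lines (33.7%, background 41%). With the KSR lines as the only pluripotent arrays, 11 genes rose (background 12.1%) and 1 fell (background 14.3%). Against the MEF array in FBS alone 6 members passed (6 higher, background 16.5% either way), and against that in iCD1 alone 6 passed (4 higher, 2 lower, background 21.4%).

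Promoter sequence was examined for elements tied to respiratory chain genes in textbooks. NRF1 and the ETS factor GABP, whose genes Nrf1 and Gabpa are described further on, are known activators of many of these genes. RefSeq (GRCm38.p6) promoters were held for 73 of the 89 genes, and the 250 bases before the first listed start were searched on both strands. The NRF1 motif (GCGCA, any base, then GCGC) was found in 12 of the 73 (16.4%), against 5.84% of the tested genes with a promoter. The ETS motif CCGGAAG was in 12 (16.4%, against 9.63%), the Sp1 motif GGGCGG in 29 (39.7%, against 46%), the TATA motif TATAAA in 7 (9.59%, against 11.2%) and the ERR motif TCAAGGTCA in 1 (1.37%, against 0.288%). None of the 5 motifs contains another. The window held a median of 15 CpG over the 73 genes and 11 over the tested genes with a promoter. The NRF1, ETS and Sp1 motifs themselves contain CpG, and the part of CpG content in these shares was not tested.

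Of the 11 genes that rose and had a promoter sequence, 3 held the NRF1 motif (Ndufs6, Ndufaf4 and Ndufa11), and so did Ndufa8, which fell. These 4 sequences are printed because they hold the NRF1 motif, and those of Cox7a1 and Cox7a2 because both genes of this isoform pair rose. Each runs 5′ to 3′ on the gene's strand and ends at the base before the start, and capitals mark every match to a motif searched.
Ndufs6, chr13:73328483-73328732, minus strand: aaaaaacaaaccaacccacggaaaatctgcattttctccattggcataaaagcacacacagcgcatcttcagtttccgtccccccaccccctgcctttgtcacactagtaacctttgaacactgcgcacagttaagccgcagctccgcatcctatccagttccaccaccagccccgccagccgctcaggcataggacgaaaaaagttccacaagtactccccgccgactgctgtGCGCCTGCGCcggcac
Ndufaf4, chr4:24897833-24898082, plus strand: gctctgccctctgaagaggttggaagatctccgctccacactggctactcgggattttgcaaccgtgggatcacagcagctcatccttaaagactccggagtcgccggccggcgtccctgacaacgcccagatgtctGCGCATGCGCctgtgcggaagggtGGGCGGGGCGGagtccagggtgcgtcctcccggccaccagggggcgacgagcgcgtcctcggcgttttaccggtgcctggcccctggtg
Ndufa11, chr17:56717512-56717761, plus strand: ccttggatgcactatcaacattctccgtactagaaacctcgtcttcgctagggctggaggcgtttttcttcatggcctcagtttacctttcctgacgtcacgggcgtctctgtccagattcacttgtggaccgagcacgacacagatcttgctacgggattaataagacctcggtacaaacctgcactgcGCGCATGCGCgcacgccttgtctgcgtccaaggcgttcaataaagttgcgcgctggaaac
Ndufa8, chr2:36049339-36049588, minus strand: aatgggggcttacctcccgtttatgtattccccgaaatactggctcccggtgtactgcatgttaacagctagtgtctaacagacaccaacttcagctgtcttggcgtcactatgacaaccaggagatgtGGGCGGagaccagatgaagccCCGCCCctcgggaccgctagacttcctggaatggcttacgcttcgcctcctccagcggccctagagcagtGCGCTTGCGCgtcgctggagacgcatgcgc
Cox7a1, chr7:30183921-30184170, plus strand: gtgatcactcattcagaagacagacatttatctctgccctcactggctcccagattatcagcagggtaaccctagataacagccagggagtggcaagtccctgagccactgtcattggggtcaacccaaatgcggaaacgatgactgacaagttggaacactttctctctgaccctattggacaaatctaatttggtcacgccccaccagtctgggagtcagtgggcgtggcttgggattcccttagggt
Cox7a2, chr9:79759854-79760103, minus strand: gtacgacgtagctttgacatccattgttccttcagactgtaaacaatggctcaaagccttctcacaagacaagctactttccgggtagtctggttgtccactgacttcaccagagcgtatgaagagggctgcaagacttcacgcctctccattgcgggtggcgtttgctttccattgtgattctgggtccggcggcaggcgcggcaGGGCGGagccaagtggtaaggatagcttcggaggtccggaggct
The NRF1 match begins 16 bases before the start in Ndufs6, 113 in Ndufaf4, 60 in Ndufa11 and 30 in Ndufa8. Cox7a2 and Ndufaf4 carry Sp1 matches, as does Ndufa8 on both strands, and Cox7a1 has no match to any of the 5 motifs. Cox7a1 also has 4 CpG in its window, against 14 in Cox7a2 and a median of 15 over the 73 genes. A match describes letters only, and no binding was measured.

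Culture medium was examined within the pluripotent cells by setting both 2i cultures (iPS line O4-1 and ES cells) against the 3 KSR lines. Cell origin changed along with medium, since the ES cells have no KSR array here. With limma 0 of the 89 genes passed, as did 0% of all 19938 genes (lowest adjusted p = 0.545). At an unadjusted p under 0.05 stood 3 of them, Ndufs6, Sdhc and Cox7b2 (3.37%, against 9.02% of all genes). The median difference was 0.01 and the median size 0.08, beside 0.15 over all genes. Both 2i arrays lay above all KSR lines for 10 genes (11.2%, background 12.9%) and below for 9 (10.1%, background 13.1%), shares near the background.

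For 85 of the 89 genes (95.5%, against 88.1% of all genes) the 95% interval excluded a 2-fold change in either direction, and the 4 others were Ndufa4l2, Cox7a1, Ndufaf5 and Cox7b2. By complex the medians were -0.02 (I), 0.07 (II), 0.01 (III), 0.03 (IV) and -0.02 (V).

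The 5 highest values for 2i were Ndufa4l2 at 0.80 (95% interval -0.50 to 2.11), Cox7a1 at 0.67 (-0.45 to 1.78), Ndufaf5 at 0.47, Sdhc at 0.32 (0.02 to 0.63) and Ndufv3 at 0.31. For Cox7a1 and Ndufaf5 line O4-4 in KSR reached the level of the 2i cultures, and for Ndufa4l2 the KSR lines spanned 1.31 log2 units, so their groups overlapped. Sdhc and Ndufv3 were higher in both 2i cultures than in every KSR line. Ndufv3 read 7.30, 7.69 and 7.47 in KSR and 7.85 and 7.74 in 2i.

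The 5 lowest were Cox7b2 at -0.96 (95% interval -1.22 to -0.71), Cox7a2l at -0.25, Ndufaf7 at -0.23, Ndufb7 at -0.22 and Atp5md at -0.21. Cox7b2 read 3.91, 4.02 and 3.97 in the KSR lines, 2.79 and 3.21 in 2i, and 3.73 and 3.28 in MEFs. It separated the media cleanly, but its mean level of 3.56 is the lowest of the 89 genes and no measure of background comes with the arrays.

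Line O4-1 was cultured in both media, 1 array each, which gives values without a test. At 1.5-fold or more, Cox7a1 (1.03) and Ndufaf5 (0.66) were higher in 2i, 2.25% of the genes against 4.19% of all genes. Cox7b2 was lower (-1.12), 1.12% against 4.49%. In this line Cox7a1 read 6.26 in KSR and 7.29 in 2i, and Ndufaf5 4.52 and 5.18. Between ES and iPS cells in 2i, Ndufa4l2 alone passed 1.5-fold, at 6.55 against 5.87 (1.12%, against 3.44% of all genes), and 0 were lower (background 2.41%).

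The 3 KSR lines were close to one another for most of these genes. A range of 1.5-fold or more over the lines was seen for 4 of the 89 (4.49%, against 15.3% of all genes), namely Ndufa4l2 (1.31), Cox7a1 (0.97), Ndufaf5 (0.84) and Cox6b1 (0.69). Cox6b1, the widely expressed isoform, read 8.07, 8.76 and 8.16, with O4-2 highest.

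Between the MEF cultures, iCD1 and FBS, 62 of the 89 genes (69.7%) were higher in iCD1, against 44.8% of all genes. The count was 57 (64%) under quantile normalization and under median centring, against 47.1% and 42.2% of all genes. The median was 0.09 beside -0.02 over all genes. These are 2 arrays with no test. In complex V 16 of the 17 genes were higher in iCD1 under all 3 scalings, with a median of 0.16. At 1.5-fold or more stood only Cox6b2, 0.73 higher in iCD1 (1.12%, background 5.62%), and Ndufaf4, 1.00 lower (1.12%, background 4.64%).

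Measured against the KSR mean, the median over the 89 genes was -0.18 in MEFs in FBS, -0.09 in MEFs in iCD1, 0.01 in iPS cells in 2i and 0.00 in ES cells. Complex V stood at -0.12 in FBS and -0.05 in iCD1, and complex III at -0.21 and -0.26.

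Lists of nuclear genes around the respiratory chain were called in larger shares than the 89 genes (14.6%) in pluripotent cells against MEFs. Of all genes 28.9% were called, 13.3% higher and 15.6% lower. Of those at or above the median level 22.9% rose and 22% fell. Of 18 regulators of mitochondrial biogenesis, 10 rose (55.6%) and 0 fell, with a median of 0.54 and 16 higher on average (17 under median centring). Tfam, which packages mitochondrial DNA and helps transcribe it, rose 2.82-fold (SE 0.10 on the log2 scale, limma adjusted p = 0.0062). Ssbp1, which coats single strands of that DNA, rose by 1.48 ± 0.11 on the log2 scale and the coactivator Pprc1 by 1.27 ± 0.09 (limma adjusted p = 0.0070 and 0.0066). Nrf1 and Gabpa rose as well, by 1.01 ± 0.11 and 0.95 ± 0.17. The coactivator Ppargc1a and the receptor Esrra, which act on the same programme in muscle and brown fat, had values of -0.56 and -0.06 and did not pass.

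Of 10 electron carriers and donors 5 rose (50%) and 1 fell (10%). Cyct, the testis form of cytochrome c, had the largest difference at 3.45 ± 0.21, while the somatic form Cycs differed by 0.41 ± 0.11 without passing (limma adjusted p = 0.0059 and 0.0707). The glycerol phosphate dehydrogenase Gpd2 and the proline dehydrogenase Prodh, which feed electrons in beside complexes I and II, rose by 0.89 and 1.06. The sulphide quinone reductase Sqor fell by 1.97.

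Among 35 assembly factors outside the symbol rule, 10 rose (28.6%) and 4 fell (11.4%). Coa7, the copper chaperone Cox17 and Sco1, all of complex IV assembly, rose by 1.31, 1.08 and 1.00. Cox20 and Cox19, of complex IV assembly as well, fell by 1.03 and 0.45, and Tmem70 (an ATP synthase factor) by 0.64. Of 17 genes of pyruvate dehydrogenase and the citric acid cycle 4 rose (23.5%) and 3 fell (17.6%). These shares were near those of genes at or above the median level. Pdhb rose by 1.16, and Idh2, Dlst and citrate synthase Cs fell by 0.82, 0.56 and 0.35. The arrays read 2 of the mitochondrially encoded subunits with a probe set of their own, ND3 of complex I and COX2 of complex IV. They differed by -0.03 ± 0.08 and -0.04 ± 0.08 and 0 of 2 passed limma's test, also at an unadjusted p under 0.05.

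**Figure D4:**
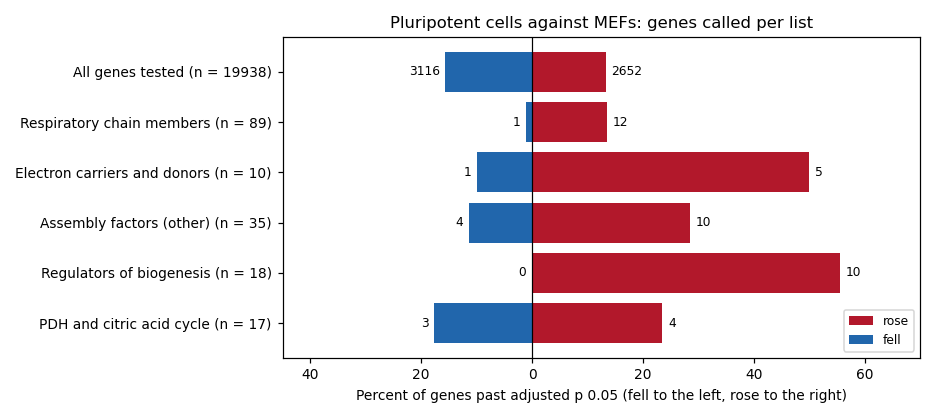
Share of genes past a limma adjusted p of 0.05 in pluripotent cells against MEFs (x axis, percent, higher to the right and lower to the left), for all genes, the respiratory chain genes and 4 lists around them, with gene counts at the bars. The respiratory chain bar on the right (13.5%) is close to that of all genes (13.3%), and that of the regulators holds 10 of 18.

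The counts of these lists also rest on few arrays. Without line O4-1 none of their genes passed, as none of all genes did. Without O4-2 the genes called were 6 regulators (10 with all lines), 3 carriers and donors (6), 6 assembly factors (14) and 1 gene of the citric acid cycle list (7), and without O4-4 they were 7, 5, 6 and 3. Against MEFs in FBS alone they were 7, 3, 6 and 2, and against MEFs in iCD1 alone 9, 5, 11 and 4.

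The 2i and KSR cultures split some of these neighbours without any passing the test. Both 2i cultures lay below all 3 KSR lines for 9 of the 18 regulators, Tfam, Ssbp1, Twnk and Tfb2m among them. The same held for 7 of the 10 carriers and donors. It held for 13.1% of all genes and for 1902 of the 9969 at or above the median level. Under quantile normalization the counts of regulators and of carriers and donors were 6 and 4. Tfam read 7.90, 7.69 and 7.74 in the KSR lines and 7.49 and 7.24 in 2i.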

How the data were processed

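Array values of 7 cultures were used as deposited. They are log2 expression per probe set, for which the submitters' processing notes name RMA and Partek as the authors' tools, with versions, background settings and genome build not given in the sources used here. Of 28853 probe sets, 21789 carried 1 gene symbol in the array's annotation. Per gene the one with the highest mean was kept (19938 genes), with no filter. Differences were tested two-sided with limma 3.58.1 in R 4.3.3, in 1 fit of 5 groups. The 2 residual degrees of freedom came from the KSR lines and limma's prior added 1.62 (prior SD 0.13), so groups of 1 array were assumed to vary like those lines. Nothing in the labels says that cultures were independent, so p-values may measure technical spread, and no batch is labelled.

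Adjusted p-values are Benjamini-Hochberg over all genes. Errors are limma standard errors. The 17 genes with several probe sets included 4 (Atp5md, Atp5pb, Cox7a2l and Ndufc1) whose probe sets differed in sign. RefSeq holds 19 pseudogenes under the same symbols, and whether probes also read such copies was not tested.

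Genes shown array by array were the called members, the 5 highest and lowest for 2i, members past 1.5-fold between single arrays, isoform groups and the 4 Sdh genes. Lists were given by counts with up to 3 examples each way. Other genes named, such as Atp5a1, Ndufb11, Nrf1 and Gabpa, were added after their values were seen. The members, the lists and this rule were chosen with earlier results of these data known. Scripts were tested on simulated data.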

Additional observations from a re-analysis of the deposited data

How the results depend on the processing

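For pluripotent cells against MEFs, the main count of 13 called genes stayed within 1.5 times under a fit of 3 groups (17), the mean of probe sets (12), a filter on low values (17), quantile normalization (15), median centring (19), limma-trend (15), the KSR lines alone (12) and both 2i cultures alone (10). It was 6 against MEFs in FBS alone and 6 against MEFs in iCD1 alone. Leaving out each KSR line in turn gave 0 to 9, with 1 residual degree of freedom fewer. For 2i against KSR it was 0 in every setting run, with 0 to 4 genes at an unadjusted p under 0.05. The 13 called genes kept their direction in every refit listed here, the call being kept in 117 gene-by-setting values and lost in 52. No paired analysis was possible because the groups compared share fewer than 2 line numbers, line O4-1 alone being in both KSR and 2i. Settings for the comparisons of single arrays and for the lists were chosen after seeing the data. Signal over background is unknown, which limits what can be read from low values such as those of Cox7b2.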
